A study of Zea mays with 4 samples.

Results

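The 150 genes described here were found at much lower mRNA levels in maize leaf protoplasts than in the whole leaf. They lie on chromosomes 4 to 9 and had a moderate count in the leaf. They were chosen from the counts themselves. A gene was eligible when it lay on chromosomes 4 to 9, had 200 to 10000 counts in the leaf 2 library and had at least 1 count in each protoplast library. Its score was the log2 ratio of the higher protoplast level to the leaf 2 level, with levels as counts per 1000000 gene counts of the library (CPM). Of 25089 annotated genes on these chromosomes, 6785 had a leaf 2 count in the range. From these, 64 were left out because a protoplast library held 0 counts (27 in both, 37 in one), and 4 more were left out by name. Of these 4, 3 scored within the lowest 150, and genes without a protoplast count have no score, so the set does not hold every deep loss of these chromosomes. This left 6717 eligible genes, and the 150 with the lowest scores are the members. The values that chose the members are described below without a test, since a difference between leaf 2 and the protoplasts is what the rule asked for.

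The study used the B73 inbred line of maize. Second leaves of V2 seedlings were harvested over their distal 6 cm, and RNA was taken either from whole segments ground in liquid nitrogen or from protoplasts, which are single cells freed from their walls by enzymes. Each of 2 whole leaf libraries (leaf 1 and leaf 2) and 2 protoplast libraries (protoplast 1 and protoplast 2) came from a pool of several plants of this line, and the labels and methods differ on how many plants went into a pool. The comparison was made to find genes whose mRNA level is altered by protoplasting, so that they could be set aside in single-cell work.

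A maize leaf fixes carbon in cooperating cell types. Mesophyll (MS) cells capture carbon dioxide into C4 acids, and bundle sheath (BS) cells, which ring each vein behind thick walls, release it again for Rubisco and the Calvin cycle. Enzymes that digest walls free MS cells more readily than BS cells or the cells of the vein, and the time in solution also changes transcription. In bulk RNA, fewer cells of a type and less RNA per cell cannot be told apart.

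Over 46430 genes, total counts were 41792981 for leaf 2, 47061988 for protoplast 1 and 42815615 for protoplast 2. One count therefore stands for a very small level, and 3 counts equal 0.0718 CPM in leaf 2, 0.0637 in protoplast 1 and 0.0701 in protoplast 2. Leaf 1, in the copy analysed here, ends within chromosome 3 and holds no gene of chromosomes 4 to 9, so leaf 2 was the only leaf library for every member. Intervals given below are exact 95% intervals for the ratio of the counts of 2 libraries. They cover counting error only and not the spread between plants.

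Genes known to mark cell types in the maize leaf were compared first. The 6 MS genes of the C4 pathway summed to 71298 CPM in leaf 2, 65962 in protoplast 1 and 62448 in protoplast 2. The 12 BS genes summed to 36845 CPM in leaf 2, 1315 in protoplast 1 and 1177 in protoplast 2, and all 12 were lower in both protoplast libraries, with scores from -7.33 to -0.95. None of these genes was at 0 in any library. The sucrose transporter SUT1, used here as the companion cell gene, had 15269 counts in leaf 2 beside 19 in protoplast 1 and 13 in protoplast 2. The summed BS genes scored -4.81 and SUT1 scored -9.82. In all, 173 of the 6717 eligible genes scored below the BS sum, the members included by their choice. The 12 BS genes and SUT1 were lower in the protoplasts, as the members were by choice. Their part in the members' low levels was not tested.

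**Figure D1:**
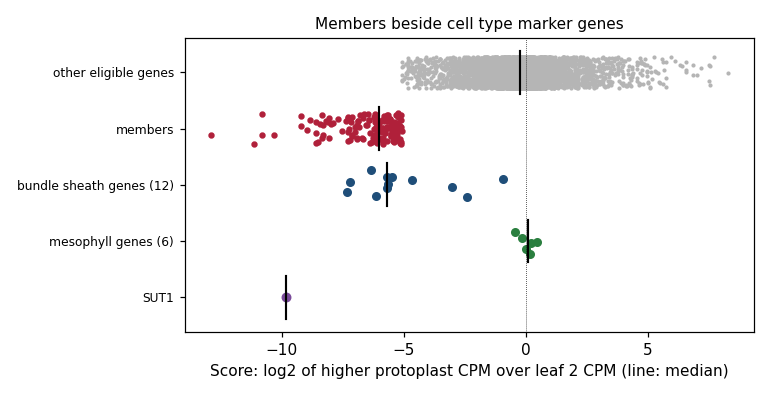
Scores (log2 of the higher protoplast CPM over leaf 2 CPM, x axis) of the other eligible genes, the 150 members, 12 BS genes, 6 MS genes and SUT1, each point 1 gene and each black line a median. The members lie between -12.92 and -5.09, in the range of most BS genes and of SUT1, while the 6 MS genes lie between -0.46 and 0.45.

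The members covered most of the range of leaf counts that the rule admits, and most had few counts in the protoplasts. Leaf 2 counts ran from 200 to 9083 with a median of 697.5, beside a median of 699 in the other 6567 eligible genes. Protoplast 1 held 1 to 238 counts per member (median 9.5), and protoplast 2 held 1 to 175 (median 6). The medians of the other eligible genes were 680 and 551 counts. Not all members were low in absolute terms, as 8 had over 100 counts in a protoplast library. Summed over the members, leaf 2 held 224265 counts, or 0.537% of the library, protoplast 1 held 3247 (0.00690%), and protoplast 2 held 2385 (0.00557%). The summed level was thus 77.8-fold lower in protoplast 1 and 96.3-fold lower in protoplast 2.

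The score had a median of -6.03 over the members and -0.25 over the other eligible genes. Among all 6717 eligible genes, 1533 (22.8%) were at least 2-fold lower than leaf 2 in both protoplast libraries, 255 (3.8%) were at least 16-fold lower, 569 (8.47%) were at least 2-fold higher and 68 (1.01%) were at least 16-fold higher. All 150 members were at least 32-fold lower in both libraries, which the rule fixes and from which nothing is read. Within the members, 78 were at least 64-fold lower in both libraries, 39 at least 128-fold, 23 at least 256-fold and 5 at least 1024-fold. The size of these values depends on the scale. With 1 CPM added to each level the median over the members was -3.81. Scaled to the summed counts of the 12 BS genes it was -1.18, and 8 of the 150 were then at least 16-fold lower in both libraries.

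**Figure D2:**
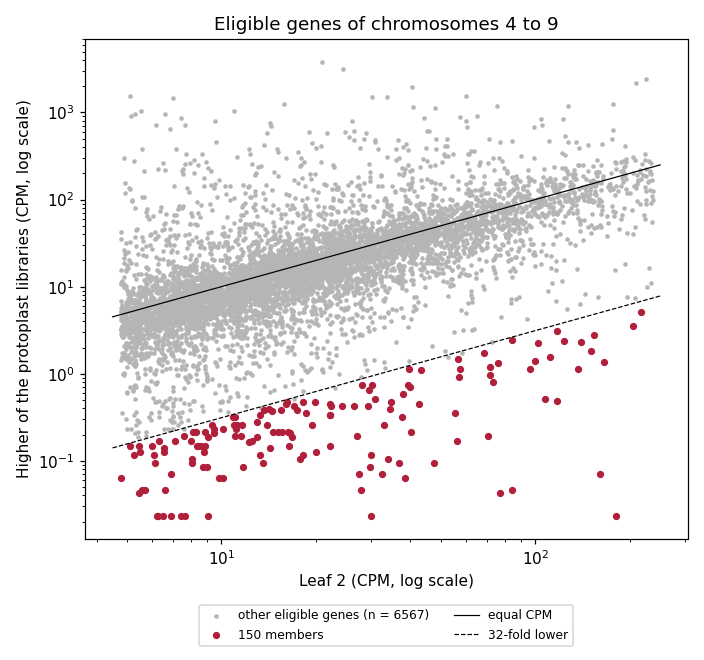
Level in the higher of the protoplast libraries (y axis) against the level in leaf 2 (x axis), both in CPM on log scales, for 6567 other eligible genes and the 150 members, 1 point per gene. The members lie under the dashed line of a 32-fold loss at every leaf level, down to 1 count in a protoplast library, and 7 other eligible genes also lie just under that line.

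The edge of the set is not a gap. The last members inside it were Zm00001d016691, a copper transport protein (score -5.11), Zm00001d008430 (-5.11) and Zm00001d009908 (-5.09). The first genes outside were Zm00001d037297, described as a receptor kinase associated with BRASSINOSTEROID INSENSITIVE 1 (-5.09), Zm00001d009927 (-5.09) and Zm00001d045570, a glycerolphosphate mutase (-5.07). Depth also shaped the order. A gene with 200 counts in leaf 2 cannot score below -7.68 once it has 1 count in each protoplast library, so the lowest scores can be reached only by genes with higher leaf counts. Of the members, 54 had under 500 counts in leaf 2, 36 had 500 to under 1000, 34 had 1000 to under 2500 and 26 had 2500 or more (36%, 24%, 22.7% and 17.3%). Among the other eligible genes the shares were 36.0%, 27.9%, 23.7% and 12.4%.

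The lowest scores belonged to genes that the sources used here do not describe. Zm00001d052034, on chromosome 4 from 177028520 to 177029881 of the B73 AGPv4 assembly with 4 exon blocks, had 7548 counts in leaf 2 beside 1 in protoplast 1 and 1 in protoplast 2. Its log2 ratio was -13.05 (interval -18.36 to -10.57) in protoplast 1 and -12.92 (-18.22 to -10.44) in protoplast 2. The leaf count was high, and both protoplast pools stood at the lowest count that the rule admits. Zm00001d011789, on chromosome 8 from 161623974 to 161624864, had 6724, 1 and 3 counts in the same order, with log2 ratios of -12.89 (-18.19 to -10.41) and -11.16 (-13.44 to -9.62). The wide gap from leaf 2 is what the rule chose.

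The other 8 of the 10 lowest scores followed the same form, with 1165 to 3532 counts in leaf 2 and 1 to 4 in each protoplast library. Zm00001d014559, a single exon of 477 bases on chromosome 5, had 3532, 2 and 2 counts in leaf 2, protoplast 1 and protoplast 2. Zm00001d038651, on chromosome 6 with 9 exon blocks, had 3223, 2 and 1 counts, and Zm00001d021938, on chromosome 7, had 1256, 1 and 1. The log2 ratio of Zm00001d021938 had a counting interval of -15.77 to -7.99 in protoplast 1, so the order among these genes rests on a few counts. Zm00001d016160 (1606, 3 and 1 counts), Zm00001d015917 (1165, 2 and 2) and Zm00001d017782 (1989, 2 and 4) came next. Zm00001d035171 (1353, 2 and 3) and Zm00001d014793 (1542, 2 and 4) completed the 10. Of all members, 9 had exactly 1 count in both protoplast libraries, 24 had 3 or fewer in both and 82 had 10 or fewer in both.

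**Figure D3:**
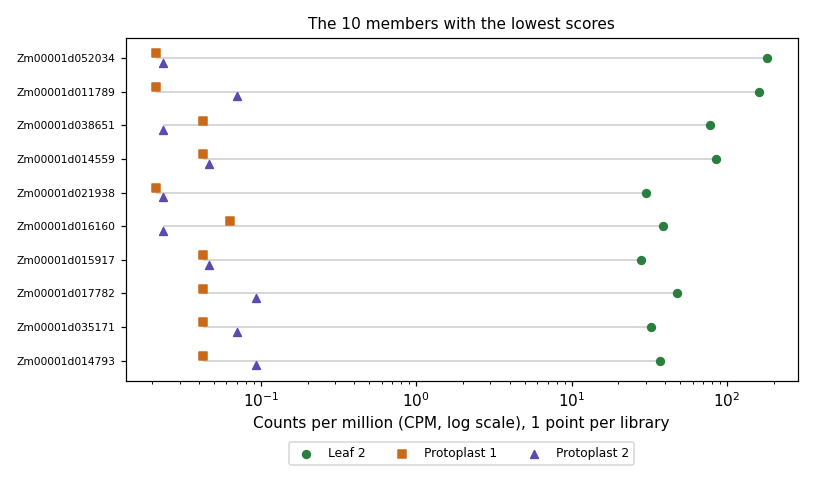
Level of the 10 members with the lowest scores in leaf 2, protoplast 1 and protoplast 2 (x axis, CPM on a log scale, 1 point per library, no error bars because each library is a single value). Leaf 2 lies near 28 CPM or above for each gene, and the protoplast points lie at 1 to 4 counts and change places from gene to gene.

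Per length of transcript, the most abundant member in the leaf was Zm00001d014790, a single exon of 393 bases on chromosome 5. It had 9083 counts in leaf 2 beside 238 in protoplast 1 and 175 in protoplast 2, and its level was 553, 12.9 and 10.4 CPM per kilobase of exon (RPKM). It remained the most abundant member in the protoplasts as well, while its fold loss (43.0 and 53.2) was among the smaller ones of the set. Zm00001d011789 followed in leaf 2 at 199 RPKM, Zm00001d052034 at 179, Zm00001d014559 at 177 and Zm00001d022477 at 174. Zm00001d022477, a single exon of 324 bases on chromosome 7, had 2360, 8 and 7 counts, a 332-fold and a 345-fold lower level in the protoplast libraries. A high level in the leaf thus stood beside both shallow and deep losses.

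Gene names were found for 22 of the 150 members, through descriptions that the study's supplementary tables give to 1098 of the 6717 eligible genes (14.7% of members and 16.3% of eligible genes). These tables list markers of single-cell clusters and genes altered by protoplasting, and 8 of the 22 stand in lists drawn up from these same libraries, so the names are not a neutral sample of the 150. The remaining 128 carry no description here and are given by identifier only. Of the 1098 described eligible genes, 2.00% were members. In those 1098, 202 genes were at least 2-fold lower in both protoplast libraries, 198 at least 2-fold higher and 698 neither, with a median score of -0.04. The keyword lists below can hold only described genes, so these are the values to set beside them.

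Transcription factors are the proteins that bind DNA to switch genes on or off. They supplied 5 of the described members, out of 60 eligible genes found by words in their descriptions (8.33% of the list). In the whole list, 19 genes were at least 2-fold lower in both protoplast libraries, 21 were at least 2-fold higher and 20 were neither, with a median score of 0.06. Of these 5 members, 3 were Dof proteins, a plant family with a single zinc finger whose members in Arabidopsis include regulators of vascular tissue. DOF3.6 (Zm00001d012963, chromosome 5) had 261 counts in leaf 2 beside 1 in protoplast 1 and 1 in protoplast 2, a log2 ratio of -8.20 (-13.51 to -5.71) in protoplast 1 and -8.06 (-13.37 to -5.57) in protoplast 2. DOF2.2 (Zm00001d047802, chromosome 9) had 483, 9 and 2 counts, and DOF2.5 (Zm00001d051439, chromosome 4) had 487, 12 and 9. The gap from leaf 2 in each of them follows from the choice of members. Only 4 eligible genes are described as Dof, a list made after values were seen, and the fourth, Zm00001d022525, had 5789, 2440 and 1915 counts with a score of -1.42, a much smaller loss than in the 3 members.

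The other described transcription factors were of the bHLH and MYB families. The basic helix-loop-helix factor bHLH133 (Zm00001d037771, chromosome 6) had 780 counts in leaf 2 beside 12 in protoplast 1 and 15 in protoplast 2, and was 73.2-fold and 53.3-fold lower. The myb domain protein 69 (Zm00001d049079, chromosome 4) had 713, 18 and 18 counts, 44.6-fold and 40.6-fold lower. Both protoplast libraries were close to each other in these genes.

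The keyword list of membrane transport supplied 4 members of its 54 eligible genes (7.41% of the list). In it 17 genes were at least 2-fold lower in both libraries, 10 at least 2-fold higher and 27 neither (median score -0.20). The study assigns the 4 genes left out by name to transmembrane transport, and they are not counted here. NOD26-like membrane intrinsic protein2 (Zm00001d037228, chromosome 6 from 116839545 to 116843339), of the aquaporin family of channels for water and small solutes, had 8533 counts in leaf 2 beside 168 in protoplast 1 and 140 in protoplast 2. It was 57.2-fold lower in protoplast 1 and 62.4-fold lower in protoplast 2, with narrow intervals on the log2 ratio of -6.07 to -5.62 and -6.22 to -5.72. The cadmium and zinc pump HMA2 (Zm00001d014669, chromosome 5), an ATPase that in Arabidopsis exports zinc from cells, had 2403, 54 and 44 counts. Multidrug and toxic compound extrusion1 (Zm00001d035115, chromosome 6), of a family that in maize roots releases citrate under aluminium, had 1580, 24 and 25. HMA2 was 50.1-fold and 56.0-fold lower and the extrusion protein 74.1-fold and 64.7-fold, and the protoplast libraries lay within their counting intervals of each other in both genes.

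The copper transport protein CCH (Zm00001d016691, chromosome 5) is a copper chaperone in Arabidopsis and entered the list by the words of its description. CCH behaved otherwise. It had 3527 counts in leaf 2 beside 115 in protoplast 1 and 36 in protoplast 2. Protoplast 1 exceeded protoplast 2 beyond the counting interval, so that the loss was 34.5-fold in one library and 100.4-fold in the other. A further transporter was outside the keyword list. NRT1/PTR FAMILY 3.1 (Zm00001d038181, chromosome 6), a relative of nitrate and peptide carriers that moves gibberellin in Arabidopsis, had 4892, 134 and 131 counts and was 41.1-fold and 38.3-fold lower. Its protoplast values nearly coincided.

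UmamiT proteins move amino acids across membranes, in Arabidopsis often outward from cells that feed the phloem or the seed. The study's tree of this family holds 47 maize genes, 30 of them on chromosomes 4 to 9 and 8 eligible, a list taken up after values were seen. Among the members, Zm00001d009372 (chromosome 8) had 1105 counts in leaf 2 beside 20 in protoplast 1 and 3 in protoplast 2. The tree places it at almost no distance from Zm00001d030424, so the split of reads between these copies is uncertain. Zm00001d045567 (chromosome 9) had 234, 1 and 2 counts, and its log2 ratio was -8.04 (-13.35 to -5.55) in protoplast 1 and -6.91 (-9.96 to -5.04) in protoplast 2. The family did not move as one. In all, 4 of the 8 were at least 2-fold lower in both libraries, 1 was at least 2-fold higher (Zm00001d047208, with 436, 1205 and 1378 counts) and 3 were neither. A further gene of the tree, with a score of -6.45, was left out by name and is not among the 8.

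Pyruvate phosphate dikinase regulatory protein 2 (Zm00001d021672, chromosome 7 from 159690992 to 159694559) belongs to the proteins that switch the C4 enzyme pyruvate phosphate dikinase on and off by phosphorylation. It had 6281 counts in leaf 2 beside 85 in protoplast 1 and 75 in protoplast 2, 83.2-fold and 85.8-fold lower. Its counterpart PDRP1, one of the MS genes, had 45380, 59198 and 47471 counts in the same libraries, with log2 ratios of 0.21 and 0.03, so the genes for this regulator differed widely in how much of their mRNA was found in the protoplasts. PDRP2 was the only member among 10 eligible genes of the C4 acid and carbon metabolism list (3 at least 2-fold lower in both libraries, 3 at least 2-fold higher, 4 neither). It was also the only member among 84 genes of the hormone and signalling list (13 lower, 31 higher, 40 neither), where the word kinase placed it. Oxygen evolving enhancer protein 3 (Zm00001d050889, chromosome 4), a subunit on the lumen side of photosystem II, had 317, 9 and 2 counts, which left its level in protoplast 2 poorly determined (log2 ratio -7.34, interval -10.40 to -5.48).

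Members of plant defence included the start of benzoxazinoid synthesis, the route to defence compounds of young maize. Benzoxazinless1 (Zm00001d048709, chromosome 4 from 3833330 to 3835353) makes the indole from which the pathway begins. It had 370 counts in leaf 2 beside 10 in protoplast 1 and 7 in protoplast 2, and was 41.7-fold and 54.2-fold lower. The 2 other eligible genes of the pathway list encode later steps, carried out by cytochrome P450 enzymes. They are not members, so their higher scores than that of benzoxazinless1 follow from the rule. Benzoxazinone synthesis5 (Zm00001d048705) had 9618, 587 and 700 counts and benzoxazinone synthesis3 (Zm00001d048702) had 1113, 182 and 168, with scores of -3.82 and -2.76. All 3 were at least 2-fold lower in both libraries. Beta glucosidase aggregating factor1 (Zm00001d019312, chromosome 7), which in maize binds the glucosidases that release benzoxazinoids from their sugar conjugates, had 3004, 46 and 13 counts. Its level was 73.5-fold lower in protoplast 1 and 237-fold lower in protoplast 2, and the protoplast libraries differed beyond their counting interval. The keyword list of defence and protease inhibitors held 7 eligible genes and no member (2 lower, 3 higher, 2 neither).

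Some described members with roles in hormone and inositol metabolism have descriptions without the words of the hormone and signalling list and are outside it. Of these, dwarf plant3 (Zm00001d045563, chromosome 9), an oxidase of gibberellin synthesis, had 397 counts in leaf 2 beside 11 in protoplast 1 and 10 in protoplast 2. It was 40.6-fold and 40.7-fold lower. Type I inositol polyphosphate 5-phosphatase 2 (Zm00001d019672, chromosome 7), which removes a phosphate from inositol signals, had 4035, 35 and 49 counts, 130-fold and 84.4-fold lower. Fatty acyl-CoA reductase 1 (Zm00001d019850, chromosome 7), which makes the fatty alcohols of waxes and suberin, had 1660, 53 and 43 counts, 35.3-fold and 39.5-fold lower. It was the only member of 14 eligible genes in the lipid and cuticle list, where 3 were at least 2-fold lower, 6 at least 2-fold higher and 5 neither. In these genes too the low protoplast values follow from the rule.

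The remaining described members belong to no single pathway. The 21.7 kDa class VI heat shock protein (Zm00001d038608, chromosome 6), a small chaperone, had 3062 counts in leaf 2 beside 20 in protoplast 1 and 34 in protoplast 2, and was 172-fold and 92.3-fold lower. A haloacid dehalogenase-like hydrolase (Zm00001d022254, chromosome 7) had 4673, 74 and 38 counts, and its protoplast libraries differed beyond their counting interval. Proteolipid membrane potential regulator5 (Zm00001d022264, chromosome 7), of a family of very small membrane proteins first known from yeast, had 1801, 49 and 47. The losses of the latter pair ranged from 39.3-fold to 126-fold.

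Actin-1 (Zm00001d010159, chromosome 8), a filament protein of the cytoskeleton, had 925 counts in leaf 2 beside 16 in protoplast 1 and 10 in protoplast 2, 65.1-fold and 94.8-fold lower. Actin-7 (Zm00001d035720), the other eligible gene described as an actin, a list made after values were seen, had 2549, 1064 and 848 counts, with log2 ratios of -1.43 and -1.62. Actin genes are close copies, and how reads shared between copies were counted is not given in the sources used here, so the split between both genes is uncertain. The study's table of genes that differ between abaxial and adaxial BS cells held 15 eligible genes and 2 members. The 4 genes left out by name also stand in this table, with scores of -6.66, -6.45, -5.95 and -4.93. Zm00001d016625, described only by its rice counterpart Os02g0519800, had 1012, 20 and 10 counts. Zm00001d016662, without a description, had 596, 5 and 6, and its span overlaps another annotated gene. Of the 15, 8 were at least 2-fold lower in both libraries, 2 at least 2-fold higher and 5 neither.

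**Figure D4:**
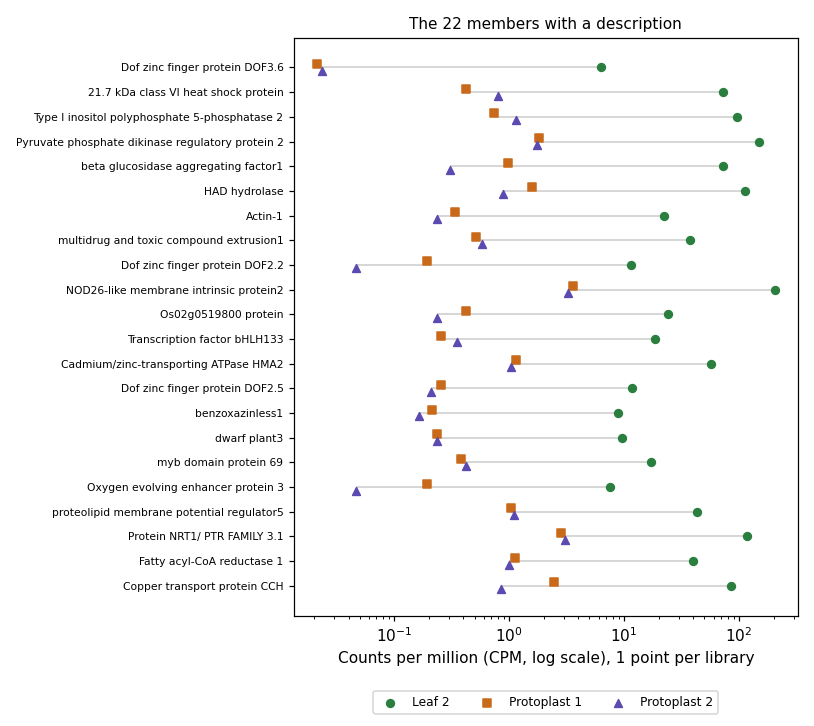
Level of the 22 described members in leaf 2, protoplast 1 and protoplast 2 (x axis, CPM on a log scale, 1 point per library, no error bars), ordered by score from the lowest at the top. Leaf 2 lies to the right of both protoplast libraries for every gene, as the rule fixes. The protoplast points lie apart most widely for the Dof protein DOF2.2, beta glucosidase aggregating factor1, oxygen evolving enhancer protein 3 and the copper transport protein CCH. For DOF2.2 and oxygen evolving enhancer protein 3, with 9 and 2 counts each, the interval of the log2 ratio between these libraries was -0.24 to 5.28. The libraries thus did not differ beyond counting error in these genes.

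Some groups had eligible genes and no member. The Calvin cycle and photorespiration list had 4 eligible genes (3 at least 2-fold lower in both libraries, 1 neither). One of the lower genes, Zm00001d049191, was caught by its words only and is described as an enzyme of methylthioribulose phosphate, which belongs to methionine salvage. Genes above the rule's upper limit of leaf 2 counts could not enter this list. Of the BS genes on chromosome 4, RBCS1, RCA2 and FBPA (Zm00001d053015) were above it, with scores of -5.68, -5.48 and -7.33. These lie below the -5.09 of the last member. TK1 on chromosome 9, also above the limit, scored -3.04. The list thus does not show how far Calvin cycle genes as a group were lowered. The cell wall and lignin list had 23 eligible genes (11 lower, 4 higher, 8 neither). Lists of cluster markers from the study's single cells, taken up after values were seen, were set beside the members as well. The 5 MS cluster lists held 812 eligible genes and 2 members, Actin-1 and the copper transport protein CCH, or 0.246% of the lists and 1.33% of the members. In the MS lists, 93 genes were at least 2-fold lower in both protoplast libraries, 174 at least 2-fold higher and 545 neither (median score 0.08). The list for the adaxial BS cluster held 234 eligible genes and 5 members (2.14% of the list and 3.33% of the members). The study reports far fewer genes enriched in adaxial over abaxial BS cells, so this list does not hold only genes particular to adaxial cells. In it 38 genes were at least 2-fold lower in both, 28 at least 2-fold higher and 168 neither. Its median score was -0.01, so the eligible genes of the list were not lowered as a set. The 12 BS genes are not a like set, as most had leaf 2 counts above the rule's upper limit (up to 365329). How cluster genes above that limit moved was not counted. The 5 members in the adaxial cluster list were the inositol 5-phosphatase, DOF2.2, DOF2.5, NOD26-like membrane intrinsic protein2 and benzoxazinless1. Members made up 2.23% of all eligible genes. A list for the abaxial BS cluster is held here only in part, so no count was made on it. The part held names several described members. Among them are DOF3.6, bHLH133, HMA2, dwarf plant3, NRT1/PTR FAMILY 3.1 and the 21.7 kDa heat shock protein. Beta glucosidase aggregating factor1 and the copper transport protein CCH are also named, CCH in an MS list too. Descriptions come from these same lists, so such an overlap is partly set by the source of the names. How the other genes of the part held moved was not counted, and nothing is read from these names.

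Gene structure was not used by the rule. Exon length had a median of 1472.5 bases in the members and 2263 in the others, and 47 members (31.3%) had under 1000 bases of exon beside 12.8% of the others. A single exon block made up 38 members (25.3%) and 10.6% of the others, and the median number of blocks was 3 against 5. The genomic span had a median of 2085 bases against 4433. With leaf counts alike and transcripts shorter, the median level per length in leaf 2 was higher in the members, at 13.1 RPKM against 7.30. An overlap with another annotated gene was found for 8 members (5.33%) and 9.09% of the others. Genes are not replicates, so these are descriptions without a test, and whether exon length played a part in the counts was not tested.

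The members lay along all 6 chromosomes in about the proportions of the eligible genes. Chromosomes 4, 5, 6, 7, 8 and 9 held 28, 36, 22, 22, 25 and 17 members, or 18.7%, 24%, 14.7%, 14.7%, 16.7% and 11.3%. The other eligible genes stood at 18.2%, 22.4%, 15.0%, 14.6%, 16.3% and 13.5%. Only 4 members had another member within 100 kb, in 2 pairs. On chromosome 5, DOF3.6 lay 83222 bases from Zm00001d012953 (272, 1 and 1 counts). Genes annotated between them included Fes1A (Zm00001d012955), with 342 counts in leaf 2 beside 10817 in protoplast 1 and 12147 in protoplast 2. On chromosome 9, dwarf plant3 lay 73642 bases from the UmamiT family gene Zm00001d045567, and of the genes between them Zm00001d045564 had 3107, 2695 and 2597 counts and Zm00001d045565 had 836, 180 and 130. Genes between the members of a pair thus ranged from lower to higher in the protoplasts.

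Both protoplast pools held the members at low levels, as the rule asked, and the ratio between the pools spread widely. Protoplast 1 had the higher CPM in 91 of the 150 members (60.7%) and in 70.8% of the other eligible genes. A ratio above 2 in favour of protoplast 1 occurred in 35 members (23.3%) and 2.16% of the others, and in favour of protoplast 2 in 9 members (6%) and 0.305% of the others. Most members have few protoplast counts, and the part of depth in this spread was not tested. Beyond the counting interval, 17 members (11.3%) were higher in protoplast 1 and 1 (0.667%) in protoplast 2, beside 46.4% and 15.7% of the other eligible genes, which have more counts. With TMM factors these numbers were 14 and 2 members, and with DESeq2 size factors 13 and 3, while in the other eligible genes DESeq2 size factors turned the lean round, to 21.6% and 32.2%. Summed over the members, the log2 ratio of protoplast 1 to protoplast 2 was 0.31 (0.23 to 0.39). Over the 53 members with 10 or more counts in both pools its median was 0.13, beside 0.16 over 6525 other eligible genes with as many counts.

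Among the 78 members with 10 or more counts in at least 1 pool, Zm00001d020793 leaned most to protoplast 1, with 924 counts in leaf 2 beside 16 in protoplast 1 and 1 in protoplast 2 (log2 ratio between the pools 3.86, interval 1.18 to 9.25). Zm00001d052375 (347, 10 and 1 counts) and the UmamiT family gene Zm00001d009372 (1105, 20 and 3) followed, at 3.19 and 2.60. At the other end stood the 21.7 kDa heat shock protein Zm00001d038608 (-0.90, interval -1.78 to -0.06), Zm00001d052760 (1291, 14 and 22 counts, -0.79) and the inositol 5-phosphatase Zm00001d019672 (-0.62). Only the first of these 3 lay beyond its counting interval. That leaf 2 was above both pools there as well follows from the rule.

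**Figure D5:**
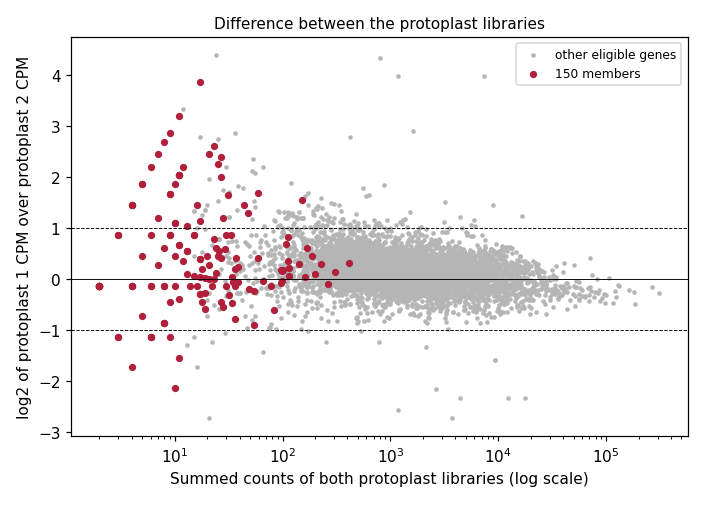
The log2 ratio of protoplast 1 to protoplast 2 CPM (y axis) against the summed counts of both protoplast libraries (x axis, log scale) for the 150 members and the other eligible genes, 1 point per gene, with dashed lines at a 2-fold difference. The members sit at the left, at few counts, and 35 lie above the upper line and 9 below the lower one.

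Since no member is counted in leaf 1, the spread between leaf pools could be seen only in genes chosen the same way elsewhere. The same count limits and score on chromosomes 1, 2 and 10 gave 150 genes with the lowest scores, each counted in leaf 1, with levels here scaled to the genes that all 4 libraries share. The log2 ratio of leaf 1 to leaf 2 in them had a median of 0.01 and lay between -0.62 and 0.65, so all 150 were within 2-fold. In the other 3943 eligible genes of those chromosomes, 99.8% were within 2-fold between the leaf pools. These are other genes than the members, whose own spread between leaf pools was not analysed here.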

How the data were processed

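RNA-seq libraries of whole leaf segments and of protoplasts, 2 each, were used as labelled. The authors trimmed reads with Trim Galore 0.6.5, aligned them with STAR 2.5.1b to the B73 AGPv4 genome and deposited raw counts per gene from featureCounts 2.0.1. Whether strand was used and how reads with several positions were treated is not given in the sources used here. The leaf 1 copy analysed here held 18619 lines, 10 of them damaged. Its 18609 usable genes ended within chromosome 3 and held 0 members, so leaf 1 entered only the comparison on chromosomes 1, 2 and 10.

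CPM used library totals over all genes, and RPKM divided CPM by exon length in kilobases. Ratios carry exact conditional 95% intervals. No test was made, because the rule used the contrast. Calculations were made in Python 3.11.15 (pandas 2.3.3, numpy 2.4.6, scipy 1.17.1). Scaling alternatives came from edgeR 4.0.16 (TMM) and DESeq2 1.42.0 in R 4.3.3. Scripts were tested on simulated data. The members and lists were chosen with earlier results of these data known. Named genes were the 10 lowest scores, the 5 highest leaf levels per length, described members, the 3 genes on each side of the limit, the 3 highest and 3 lowest ratios between protoplast libraries and members within 100 kb of each other. Other genes were named after their values were seen. Descriptions come from the study's supplementary tables, since the RefSeq gene table used here matched no identifier.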

Additional observations from a re-analysis of the deposited data

How the results depend on the processing

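The main limits are that a single leaf library counts the members, that most members hold few protoplast counts, and that the levels are shares of a library whose cell types differ. The median log2 ratio of the members, -6.03, was -5.73 with TMM factors, -5.71 with DESeq2 size factors and -6.01 with totals over nuclear genes. These scalings moved the median score of all eligible genes from -0.27 to 0.04, 0.07 and -0.25. The median ratio was -3.81 with a pseudocount of 1 CPM. Scaled to the summed counts of the 12 BS genes, a choice made after seeing the data, the median ratio was -1.18 and 8 members in place of 150 stayed at least 16-fold lower in both libraries. With each protoplast replicate left out in turn, the median ratio lay between -6.64 and -6.18, and 117 to 121 of the 150 were kept. The members at least 16-fold lower numbered 150 each time, which the rule fixes. The set kept 148 to 150 members under the other scalings, 142 with the mean of the protoplast levels and 137 with no upper leaf limit. It kept 89 with no protoplast minimum and a pseudocount of 0.5, 53 with at least 10 counts in both protoplast libraries and 96 with a leaf 2 minimum of 500. In the latter 2 cases, members under the new minimum could not be kept. The median log2 ratio between the protoplast libraries, 0.20 over the 150 members, was 0.0910 with TMM factors, 0.0101 with DESeq2 size factors and 0.13 over members with 10 or more counts in both. Of 185 values of 37 named members under these scalings and without a protoplast library, 166 moved within a limit and 19 moved further. The limit was the larger of the SD between the protoplast libraries and 0.5 of the counting interval, a wide limit at few counts. None changed direction, which the choice of the members had fixed. No paired analysis was possible because the results come from no test and, on these chromosomes, leaf and protoplast share only replicate number 2.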
